A study of Mus musculus with 3 samples.

Results

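The genes described here encode the proteins of the cytosolic ribosome and were followed across 3 mouse bone marrow-derived dendritic cell cultures. They were chosen by symbol alone: every gene named Rpl or Rps with a number, or Rpsa or Rplp, that had at least 1 probe set annotated to no other gene. Pseudogenes and the Rps6k kinases were left out. This gave 50 of the 18193 genes with such a probe set. Of the 50, 26 belong to the large subunit, 23 to the small subunit, and Rps19bp1 is not a ribosomal protein but a nucleolar partner of Rps19 whose symbol the rule takes in. A further split counted 43 core members and 7 others, which are Rps19bp1 and the like-named copies Rpl3l, Rpl7l1, Rpl22l1, Rpl39l, Rps4l and Rps27l. All 50 symbols matched the RefSeq gene table, and the genes lie on 17 chromosomes, with Rps4x and Rpl39 on X.

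All cultures were grown from bone marrow in GM-CSF at 10 ng/ml for 10 days. One received LPS, a component of the bacterial outer membrane, at 10 ng/ml together with 8-Br-cAMP at 100 µM for 3 h, another received LPS at 10 ng/ml alone for 3 h, and the last was left unstimulated, with no time stated. 8-Br-cAMP is a cell-permeable analogue of cyclic AMP; the sample label of the first culture says cAMP, and the treatment protocol names the bromo compound. Total RNA of each culture was hybridised to a single Affymetrix Mouse 430 2.0 array. Strain, sex and age of the mice, pooling of animals, and any vehicle given to the other cultures are not stated in the labels.

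A ribosome is built from ribosomal RNA and a fixed set of proteins, most of them present in a single copy. Their mRNAs are among the most abundant in most cells. Most vertebrate ribosomal protein mRNAs begin with a 5′ terminal oligopyrimidine tract, a C followed by a run of C and T. Through this tract mTOR signalling and the binding protein Larp1 govern how much of the mRNA is translated. An array of total RNA measures the amount of these mRNAs, not their translation. In dendritic cells, LPS sensing leads within hours to large changes in cytokine and interferon-response transcripts, and cyclic AMP acts through protein kinase A and Epac to alter that response.

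The start sites were read from RefSeq promoter sequences (GRCm38.p6), which held 44 of the 50 members. A tract, defined as C at the annotated start followed by at least 4 bases that are C or T, was present in 8 of the 44 (18.2%), against 3.01% of all 27025 genes in the table. The windows below run from 20 bases before the start into the first 15 bases of the transcript, 5′ to 3′ on the gene's strand, with the tract in capitals. Rps6, Rps27, Rplp2 and Rpl35 are shown as 4 of the members with a tract. Rpl41 and Rps25 are shown because they had the largest differences among the core members, and these windows have no tract at the annotated start.
Rps6 (chr4:86857353-86857387, minus strand): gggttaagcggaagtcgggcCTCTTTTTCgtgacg
Rps27 (chr3:90213634-90213668, minus strand): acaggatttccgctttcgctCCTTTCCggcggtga
Rplp2 (chr7:141447631-141447665, plus strand): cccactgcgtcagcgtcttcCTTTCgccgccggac
Rpl35 (chr2:39005117-39005151, minus strand): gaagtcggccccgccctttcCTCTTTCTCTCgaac
Rpl41 (chr10:128549154-128549188, minus strand): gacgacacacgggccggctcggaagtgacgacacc
Rps25 (chr9:44407694-44407728, plus strand): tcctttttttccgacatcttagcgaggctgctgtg

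In the whole promoter windows, 250 bases before to 50 after the start and read on both strands, CCGGAAG was present in 21 of 44 members (47.7%), against 9.93% of all genes. These letters are a core that ETS-family factors can bind. The full cyclic AMP response element TGACGTCA was present in 2 members, Rpl27a and Rps9 (4.55%), against 2.03% of all genes. Its shorter part TGACG, which every full element also contains, was present in 21 members (47.7%), against 23.0% of all genes. GGGCGG, a GC box, was present in 26 (59.1%), against 38.2%. CACGTG, the E-box that Myc can bind, was present in 4 (9.09%), against 8.09%. A match describes the letters and shows no binding.

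The deposited values were MAS5 signal intensities on a linear scale, and with 3 arrays their number limits the precision. The mean of the deposited signals, trimmed at both ends, was 63.2 with LPS+8-Br-cAMP, 111 with LPS alone and 135 in unstimulated cells, so the arrays were scaled by 1.63, 0.929 and 0.763 in that order. Scaled signals under a floor of 32.5, the highest array median, were set to the floor before log2 was taken. A gene is given by its brightest single-gene probe set and counted as measured in a comparison when above the floor on at least 1 of its arrays. A gene was called higher or lower when it passed 2-fold. With 1 array per condition no test, p-value or spread between cultures can be had, so every difference below is between these arrays, not shown for the conditions. Of 10 dendritic cell markers, 10 were above the floor on every array.

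The cultures also differed in cell markers and in sex-linked genes. All 12 granulocyte markers on the array were lower on the LPS+8-Br-cAMP array than on the LPS array, and their summed scaled signal was 23863 with LPS+8-Br-cAMP, 45086 with LPS alone and 42779 in unstimulated cells. The summed signal of the 10 dendritic cell markers was 52151, 40574 and 33026 in the same order. With LPS+8-Br-cAMP over LPS, 7 of these were higher and 3 lower, which were Itgax (-0.21), Ciita (-0.19) and Zbtb46 (-0.35). B and plasma cell markers, 9 of 11 above the floor, summed to 3797, 2956 and 3716. Xbp1 made up 3401, 2043 and 2427 of these sums, while Jchain had 23.2, 529 and 716. Of the 9, 5 were higher and 4 lower with LPS+8-Br-cAMP than with LPS alone. The T and NK cell markers, 3 of 5 above the floor, summed to 117, 108 and 194, with Cd3e and Cd3g under the floor on every array. Mast cell and basophil markers, 6 of 6 above the floor, summed to 1318, 1049 and 717, and erythroid markers, 2 of 5, to 170, 97.4 and 125. Hdc made up 939, 539 and 28.9 of the mast cell and basophil sums. Of these 6 markers, 3 were higher and 3 lower with LPS+8-Br-cAMP than with LPS alone, and Cpa3, Mcpt8 and Ms4a2 were the lower ones. Xist had 1716 with LPS+8-Br-cAMP, against 8.08 with LPS alone and 32.3 in unstimulated cells. The Y-linked Eif2s3y had 1.24, 272 and 352 in that order, and Uty, also Y-linked, had 3.64, 78.2 and 66.0. High Xist with Y-linked genes under the floor is the pattern of female cells. It was seen on the LPS+8-Br-cAMP array alone, and the other arrays had the male pattern. Sex of the cells and 8-Br-cAMP thus differed together and cannot be told apart on these arrays. The part of these differences between cultures in the ribosomal protein result was not tested.

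With LPS and 8-Br-cAMP, most ribosomal protein mRNAs gave a higher scaled signal than with LPS alone, by a small and similar amount, though not in the signals as deposited. Of 48 measured members, 45 were higher at any size (93.8%), against 53.2% of the 12572 genes measured in this comparison. Their median log2 difference was 0.52, a 1.43-fold difference, and their interquartile range was 0.33 to 0.69. The median over all measured genes was 0.05. Past 2-fold higher were 3 members (6.25%), which is near the 6.49% of all genes, and 0 were past 2-fold lower, against 5.81% of all genes. Past 1.5-fold higher were 18 members (37.5%), against 18.1% of all genes, and 0 were past 1.5-fold lower, against 15.8%. Fewer cells of a type and less RNA per cell cannot be told apart in these bulk samples.

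**Figure D1:**
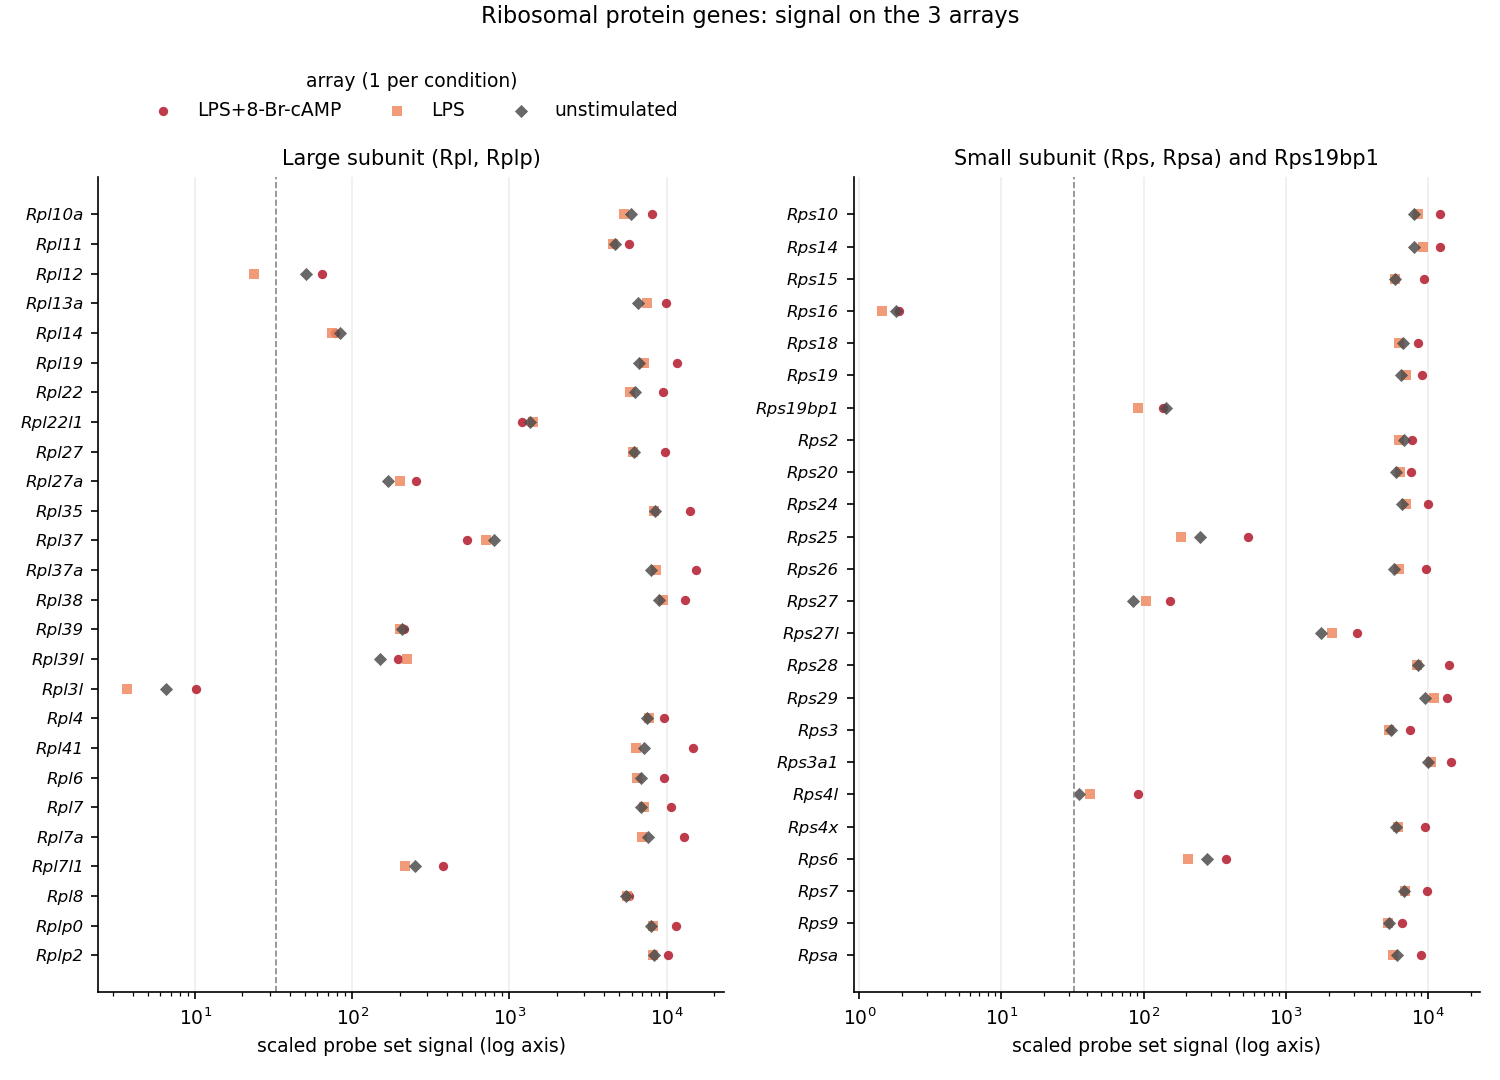
Scaled probe set signal (log axis, with a different range in each panel) of each ribosomal protein gene, 1 row per gene, with large-subunit genes on the left and small-subunit genes and Rps19bp1 on the right. Circles are the LPS+8-Br-cAMP array, squares the LPS array and diamonds the unstimulated array, and the dashed line is the floor of 32.5; the circle lies furthest right for 43 of the 48 measured genes.

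How far this shift stands out depended on how the arrays were put on 1 scale. After quantile normalization the members' median was 0.17 with 34 of 48 higher, against a median of 0.05 over all genes. After cyclic loess it was 0.17 with 36 of 48 higher, against 0.03. In the signals as deposited the members' median was -0.29, against -0.65 over all genes, with 7 of 47 higher. Scaled to the spiked-in control transcripts, it was 0.65, against 0.16. The members' median thus lay above that of all genes under each of these 5 settings, by 0.47 with the trimmed mean and by 0.12 to 0.50 with the others.

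**Figure D2:**
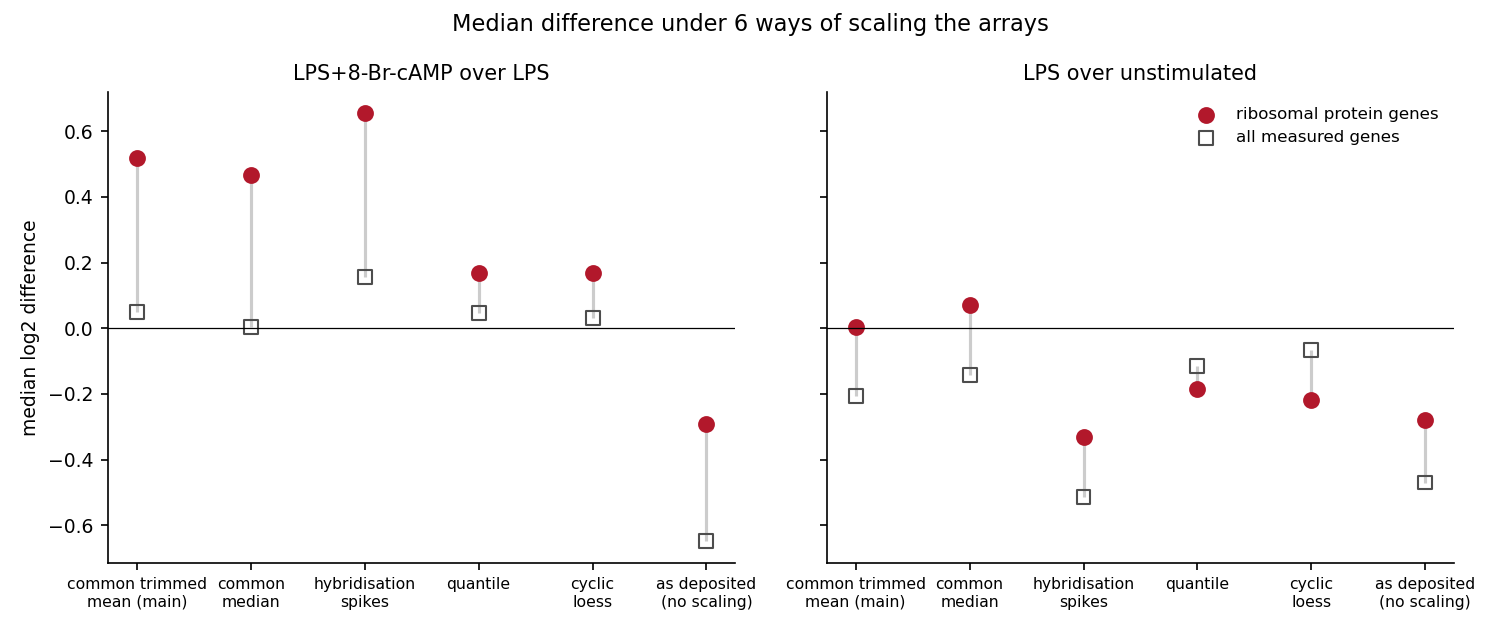
Median log2 difference of the ribosomal protein genes (circles) and of all measured genes (open squares) under 6 ways of scaling the arrays, in LPS+8-Br-cAMP over LPS on the left and LPS over unstimulated on the right. On the left the circle lies above the square under all 6, from 0.65 with the spikes to -0.29 as deposited, and on the right it lies below the square after quantile normalization and cyclic loess.

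The level of signal moved with the difference as well. Among genes with a mean scaled signal of 4096 to 16384 on the arrays, 34 members had a median of 0.51 and 136 other genes a median of 0.35. Other genes at 2048 to 4096 had a median of 0.19 (240 genes), and those at 512 to 2048 had 0.03 (1357 genes). The members' own medians did not follow the signal in order. In the range of 512 to 2048 there were 2 members, Rpl22l1 and Rpl37, with a median of -0.32. At lower signal, 6 members at 128 to 512 had a median of 0.57, against -0.03 for 3871 other genes, and 5 members at 32 to 128 had 0.60, against 0.06 for 5476 others. A dim single-gene probe set does not mean a rare mRNA, as the probe sets shared with other genes show further on.

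**Figure D3:**
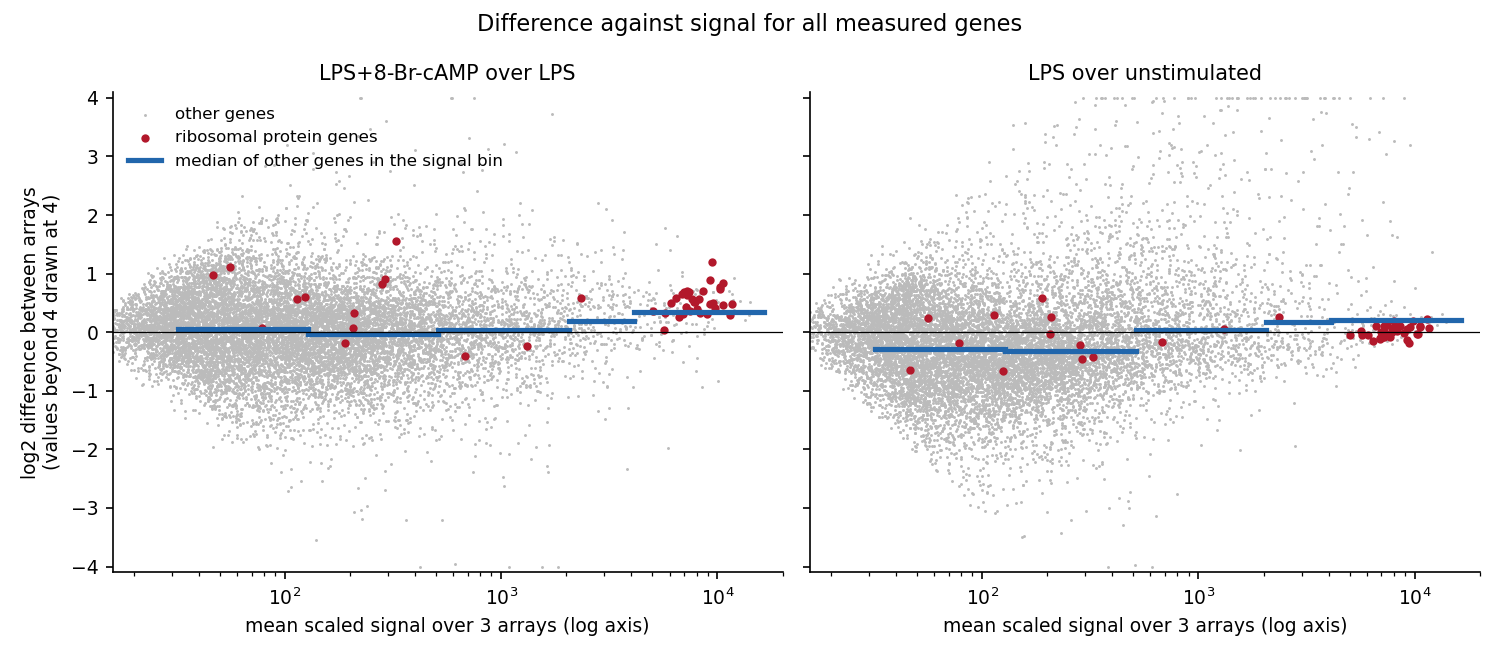
Log2 difference (values beyond 4 drawn at 4) of each measured gene against its mean scaled signal over the 3 arrays (log axis), in LPS+8-Br-cAMP over LPS on the left and LPS over unstimulated on the right. Large points are ribosomal protein genes, small points other genes, and bars the median of the other genes in each signal range, which is 0.35 in the brightest range on the left, where 34 ribosomal protein genes have a median of 0.51.

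The shift was seen in both subunits. All 22 measured small-subunit members were higher with 8-Br-cAMP, with a median of 0.52 and a lowest value of 0.26, while as deposited that median was -0.29. Of 25 measured large-subunit members 22 were higher, with a median of 0.47, and of -0.34 as deposited. The 43 core members had a median of 0.51, with 41 of 42 measured higher.

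Where a member had further probe sets, most were higher too, but not all. Of 44 measured further probe sets, from 20 members, 37 were higher with 8-Br-cAMP and 7 lower. The lower ones belonged to Rps24, Rps9, Rpl37a, Rps3 and Rps18, named here after their values were seen. Rps24 ran from 0.52 on its brightest probe set to -1.77 on a dim one. The 2 brightest probe sets above the floor on both arrays could be paired in 19 members. Of these, 18 had both higher, and the log2 difference of a single probe set had an error of 0.16, against 0.48 over 3859 genes. It was 0.27 over the 250 genes whose probe sets both averaged over 1000. Over all 106 single-gene probe sets of the members, 82 of 92 measured were higher, with a median of 0.49, and 5 were past 2-fold higher and 1 lower. This error, the SD of the gap between paired probe sets over the square root of 2, describes the measurement on 1 pair of arrays and not the spread between cultures.

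Among the proteins of the large-subunit stalk, where elongation factors dock, Rplp0 had 11417 with LPS+8-Br-cAMP, 8222 with LPS alone and 7940 in unstimulated cells. Its log2 difference was 0.47 in LPS+8-Br-cAMP over LPS and 0.05 in LPS over unstimulated. Rplp2 had 10177, 8218 and 8338 in the same order of arrays, a difference of 0.31 over LPS. Both stalk proteins were thus highest with 8-Br-cAMP and nearly level in the other cultures, as were most of the members that follow.

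Rpl11, a large-subunit protein that binds Mdm2 when ribosome assembly fails, had 5798 with LPS+8-Br-cAMP, 4534 with LPS alone and 4705 in unstimulated cells, a log2 difference of 0.35 with 8-Br-cAMP over LPS. Rpl13a, which in human myeloid cells leaves the ribosome to silence interferon-gamma-induced inflammatory mRNAs, had 9917, 7551 and 6615, differences of 0.39 with 8-Br-cAMP over LPS and 0.19 with LPS over unstimulated. Its other probe sets gave 0.68, 1.01 and 0.37 with 8-Br-cAMP over LPS, and -0.07, -0.60 and -0.77 with LPS over unstimulated. Rpl22, needed for the development of alpha-beta T cells in mice, had 9560, 5896 and 6263, a difference of 0.70, with 0.36 and 0.70 on its other probe sets. On their brightest probe sets all of them were highest on the LPS+8-Br-cAMP array, short of 2-fold.

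Within the large subunit the largest difference was that of Rpl41, the smallest ribosomal protein, which had 14708 with LPS+8-Br-cAMP, 6382 with LPS alone and 7238 in unstimulated cells. That is a log2 difference of 1.20 over LPS, the only core member with a mean signal over 1000 that passed 2-fold. Its second probe set had 9448, 4740 and 4467 (0.995), and a dimmer probe set had 151, 45.5 and 101 (1.73). The remaining probe set was under the floor on both LPS-treated arrays. The Rpl41 difference was 0.74 after quantile normalization, 0.79 after cyclic loess, 0.98 as a mean over its probe sets and 0.40 as deposited. Its call at 2-fold is therefore lost under these settings.

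Rpl7a, a protein of the large subunit, had 12985 with LPS+8-Br-cAMP, 6963 with LPS alone and 7643 in unstimulated cells, a log2 difference of 0.90. Rpl37a, a zinc-binding protein, had 15398, 8562 and 7926 (0.85), and Rpl35, which lies near the exit of the peptide tunnel, had 14156, 8316 and 8490 (0.77). None passed 2-fold, and with LPS over unstimulated they lay between -0.13 and 0.11. Other probe sets of Rpl35 gave 0.45, 0.49, 0.62 and 0.23 over LPS, and those of Rpl37a gave 0.77 and, on a dim one, -0.24.

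Members near 0 or below were few and lay in the large subunit. Rpl8, a protein close to the peptidyl transferase centre, had 5808 with LPS+8-Br-cAMP, 5637 with LPS alone and 5527 in unstimulated cells, a log2 difference of 0.04 over LPS. Rpl37 had 534, 710 and 795, a log2 difference of -0.41 over LPS and the lowest of all members. Rpl37 also has 3 probe sets shared with another annotated gene, and these did not run 1 way. The brightest had 10101, 7824 and 7144 (0.37), the next 4261, 5765 and 5397 (-0.44), and the dimmest 182, 163 and 180 (0.16). The direction of Rpl37 therefore depends on the probe set read.

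In the small subunit, Rpsa, which binds the 40S particle and also serves as a laminin receptor, had 8917 with LPS+8-Br-cAMP, 5653 with LPS alone and 6070 in unstimulated cells. Its log2 difference over LPS was 0.66. Rps3, at the mRNA entry channel and also known as a partner of NF-kappaB, had 7457, 5305 and 5467 (0.49), while a dim second probe set, under the floor with 8-Br-cAMP, was lower by at least 0.61. Rps4x, the X-linked form of eS4, had 9608, 6117 and 5997 (0.65). Rps19, mutated in Diamond-Blackfan anaemia in humans, had 9027, 6988 and 6429 (0.37). Rps29 had 13580, 11066 and 9476 (0.30). All 5 were highest on the LPS+8-Br-cAMP array and none passed 2-fold.

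Rps6, the substrate of S6 kinase downstream of mTOR, had 383 with LPS+8-Br-cAMP, 204 with LPS alone and 279 in unstimulated cells on its own probe set. Its log2 difference over LPS was 0.91. The brightest of its 9 shared probe sets had 18064, 9810 and 8982, a difference of 0.88. All 9 were higher with 8-Br-cAMP than with LPS alone, by 0.17 to 1.24, so the size depends on the probe set read and the direction does not. For Rps27, a zinc-finger protein, the own probe set had 153, 103 and 84.1 (0.56) and the shared probe set had 8061, 5187 and 4869 (0.64).

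Rps25, which is needed for initiation at certain viral internal ribosome entry sites, had the highest value of all members. Its own probe set had 542 with LPS+8-Br-cAMP, 184 with LPS alone and 248 in unstimulated cells, a log2 difference of 1.55 over LPS and 1.12 over unstimulated. The difference over LPS passed 2-fold after quantile normalization too, and was 1.57 after cyclic loess. As deposited it was 0.75, short of 2-fold. The shared probe set annotated to Rps25 had 5840, 5181 and 5381, a difference of 0.17. The call for Rps25 thus holds for a dim probe set with the trimmed mean, quantile normalization and cyclic loess. It is not seen as deposited or on the bright shared probe set.

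Rpl12, at the base of the stalk, had 64.3 with LPS+8-Br-cAMP, was under the floor with LPS alone and had 50.8 in unstimulated cells. It was at least 1.98-fold higher with 8-Br-cAMP than with LPS alone. Its brightest shared probe set had 11343, 5920 and 6892 and a log2 difference of 0.94, and the other gave 0.84. Rps16, a small-subunit protein whose tail reaches the decoding site, was under the floor on all 3 arrays by its own probe set, with scaled signals of 1.91, 1.45 and 1.82, while its shared probe sets had 12433, 9599 and 8554 (0.37) and 13030, 6859 and 7125 (0.93). The only other member under the floor throughout was Rpl3l, a muscle form of Rpl3, with 10.2, 3.68 and 6.48. Rpl14 and Rpl39 had differences of 0.07 and 0.08 on their own dim probe sets, and 0.37 and -0.01 on the brightest shared ones; the 5 shared probe sets of Rpl14 ran from -0.10 to 0.52.

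The like-named copies did not all differ in the same direction. Rps4l, a copy of Rps4x, had 90.8 with LPS+8-Br-cAMP, 41.7 with LPS alone and 35.1 in unstimulated cells, a log2 difference of 1.12 over LPS and 1.37 over unstimulated. It passed 2-fold, at a signal close to the floor, and with a pseudocount in place of the floor its difference over LPS was 0.89. Rps27l, which p53 can induce, had 3162, 2112 and 1769, differences of 0.58 over LPS and 0.26 for LPS over unstimulated. Its other probe sets gave 0.80 and 0.65 over LPS, and 0.56 and 0.36 for LPS over unstimulated. Rpl7l1, a nucleolar relative of Rpl7, had 381, 216 and 250 (0.82), and a second probe set gave 0.56.

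Rpl22l1, the copy whose mRNA Rpl22 represses in mice, had 1198 with LPS+8-Br-cAMP, 1407 with LPS alone and 1350 in unstimulated cells, a log2 difference of -0.23, beside 0.70 for Rpl22. Rpl39l, a copy of Rpl39 known from male germ cells in mice, had 196, 224 and 150, a difference of -0.19 over LPS and 0.58 for LPS over unstimulated. Rps19bp1 had 137, 90.9 and 144, differences of 0.60 and -0.67. Rpl22l1, Rpl39l and Rpl37 were the 3 of 48 members that were lower with 8-Br-cAMP than with LPS alone.

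**Figure D4:**
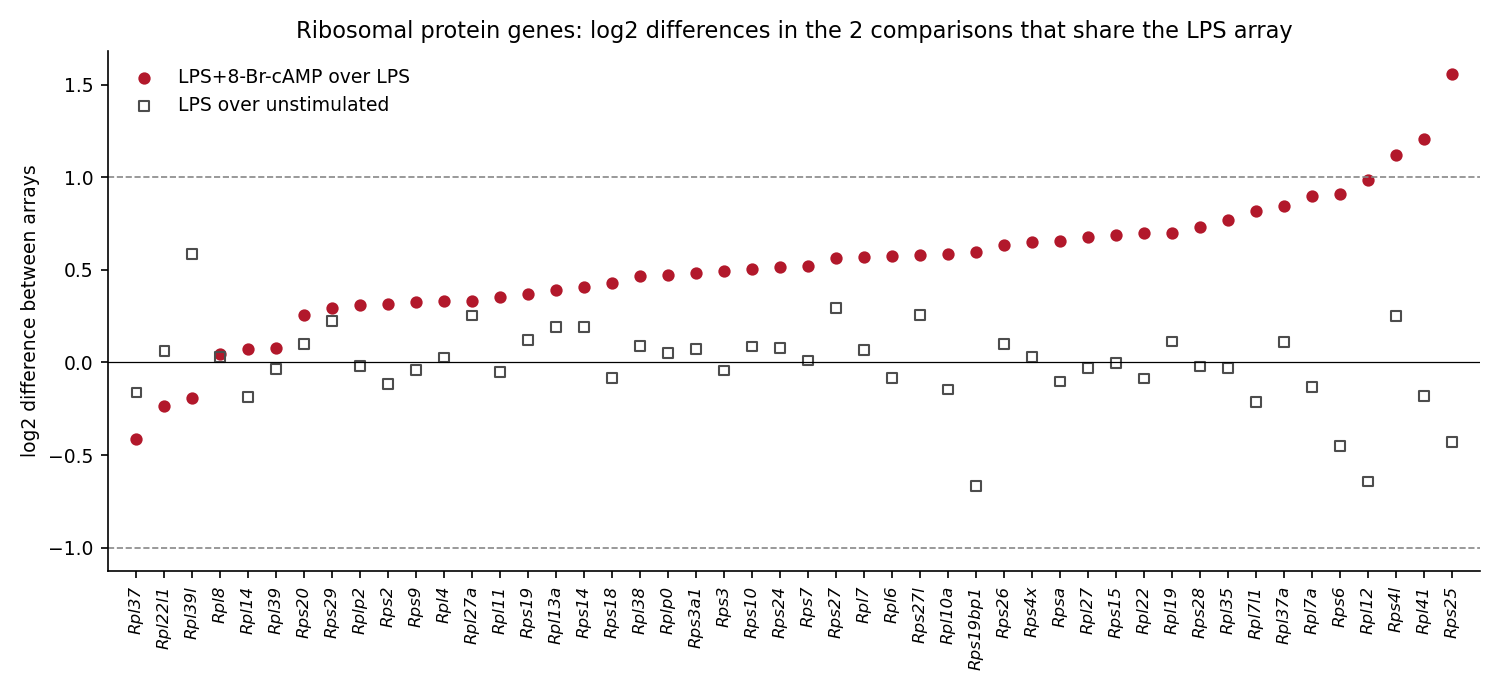
Log2 difference between arrays (vertical axis) of each of the 48 measured ribosomal protein genes, ordered by LPS+8-Br-cAMP over LPS (circles), with LPS over unstimulated as open squares and dashed lines at 2-fold; both use the LPS array, and the values of Rpl12 are lower bounds in size. With the common trimmed mean 45 circles lie above 0 and 3 pass 2-fold, while 24 squares lie above 0 and 0 pass, and as deposited 7 of 47 circles lie above 0.

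With the common trimmed mean, the members gave nearly the same signal with LPS alone as without stimulation, while many other genes differed. Of 48 measured members, 0 were past 2-fold higher, against 6.64% of 12283 genes, and 0 were past 2-fold lower, against 13% of them. The members' median log2 difference was 0.0032 and their interquartile range was -0.09 to 0.10, against -0.66 to 0.25 for all genes. At any size 24 of 48 were higher (50%), against 38.2% of all genes. Past 1.5-fold lower were 2 members, Rps19bp1 and Rpl12, against 28.6% of all genes, and 0 were past 1.5-fold higher, against 13.9%. Equally bright genes lay on the other side of the members. At a mean scaled signal of 4096 to 16384, 34 members had a median of 0.02 and 136 other genes 0.21. Of 892 other genes with a mean over 1000, 21.9% were past 2-fold higher, and 15 were past 2-fold lower.

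The highest member in LPS over unstimulated was Rpl39l (0.58), followed by Rps27 (0.29), Rps27l (0.26), Rpl27a (0.25), Rps4l (0.25) and Rps29 (0.22). Rpl27a had 255 with LPS+8-Br-cAMP, 202 with LPS alone and 170 in unstimulated cells. The lowest were Rps19bp1 (-0.67), Rpl12 (at least 0.64 lower), Rps6 (-0.45), Rps25 (-0.43), Rpl7l1 (-0.21) and Rpl14 (-0.19). Rpl14 had 77.5, 73.8 and 84 on the arrays in the same order. All 6 lowest were read on probe sets with a mean under 1000, and the 36 brighter members ran from -0.18 to 0.26.

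The level of all members against unstimulated cells depended on the scaling. Their median in LPS over unstimulated was -0.18 after quantile normalization, with 9 of 48 higher, and -0.22 after cyclic loess, with 8 of 48 higher. It was -0.33 with spike scaling and -0.28 as deposited. The median of all genes was -0.21 with the trimmed mean, -0.11 after quantile normalization and -0.07 after cyclic loess. A small drop or no difference in ribosomal protein mRNA with LPS could therefore not be told apart on these arrays. Probe sets of 1 member differed with an error of 0.12 here, and 10 of 19 pairs had the same direction.

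Between LPS with 8-Br-cAMP and no stimulation, 44 of 48 members were higher with the common trimmed mean (91.7%), against 43.8% of 12793 genes. This comparison shares an array with each of the others. Past 2-fold higher were 3 members, Rps4l, Rps25 and Rpl41 (6.25%), against 9.36% of all genes, and 0 were past 2-fold lower, against 15.8%. Past 1.5-fold higher were 21 members, against 18.5% of all genes, and 0 were past 1.5-fold lower, against 29.5%. The median was 0.55, against -0.12 over all genes, but it was 0.03 after quantile normalization and -0.02 after cyclic loess. At a mean scaled signal of 4096 to 16384, 34 members had a median of 0.55 and 136 other genes 0.62, so equally bright genes shared this shift. Of 892 other genes with a mean over 1000, 41.1% were past 1.5-fold higher, against 44.4% of the 36 members over 1000. Over the 3 arrays, the LPS+8-Br-cAMP array was the highest for 43 of 48 members (89.6%), and for 32.6% of 13289 genes. Scaled signal was also summed over the 18193 genes, each on its brightest single-gene probe set. The members made up 6.99% of that sum with LPS+8-Br-cAMP, 5.37% with LPS alone and 5.72% in unstimulated cells.

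The differences were also read by sequence feature. The 8 members with a tract at the annotated start had a median of 0.48 in LPS+8-Br-cAMP over LPS, and the 34 measured members without it had 0.58. The rule reads the annotated start base alone, so a tract at another start was not counted and the split also follows the annotation. Those with CCGGAAG had 0.50 (21 members) and those without it 0.58 (21 members). Rpl27a and Rps9, with the full cyclic AMP response element, each had 0.33, under the members' median of 0.52.

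Genes that make and use ribosomes were read beside the members. Mitochondrial ribosomal proteins, which build the separate ribosome of mitochondria, had a median of 0.23 in LPS+8-Br-cAMP over LPS, with 59 of 76 higher. Past 2-fold higher were 5 (6.58%), against 6.49% of all genes. In LPS over unstimulated their median was -0.57, with 67 of 76 lower. Past 2-fold lower were 14, against 13% of all genes and 0 cytosolic members. Mrpl34 had 373 with LPS+8-Br-cAMP, 132 with LPS alone and 295 in unstimulated cells. Mrpl47 had 121, 36.8 and 115 in the same order, and Mrps31 had 143, 49.3 and 155. All 3 were lowest with LPS alone on these probe sets. A second, dim probe set of Mrpl47 ran the other way, with 27.1, 38.8 and 25.5, and was above the floor with LPS alone only.

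Among 31 translation initiation factors the median was 0.41 with 8-Br-cAMP over LPS. Past 2-fold, 2 were higher (6.45%) and 2 lower, against 6.49% and 5.81% of all genes. With LPS over unstimulated the median was -0.22, again with 2 higher and 2 lower, against 6.64% and 13% of all genes. Eif4e, the cap-binding protein, had 3852 with LPS+8-Br-cAMP, 1953 with LPS alone and 637 in unstimulated cells, a log2 difference of 1.62 for LPS over unstimulated. Eif2b1, a subunit of the exchange factor for eIF2, had 175, 42.7 and 167, differences of 2.04 with 8-Br-cAMP over LPS and -1.97 with LPS over unstimulated. The 12 elongation and termination factors had medians of 0.05 with 8-Br-cAMP over LPS and 0.06 with LPS over unstimulated.

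Ribosome biogenesis factors, 53 of them on the array, had a median of 0.15 with 8-Br-cAMP over LPS. Past 2-fold, 2 were higher and 2 lower of 50 measured, against 6.49% and 5.81% of all genes. With LPS over unstimulated their median was -0.37, with 2 past 2-fold higher and 12 lower of 49 measured, against 6.64% and 13% of all genes. Gar1, a protein of the RNA-guided pseudouridylation complex, had 39.9 with LPS+8-Br-cAMP, 116 with LPS alone and 65.8 in unstimulated cells. Its log2 difference with 8-Br-cAMP over LPS was -1.53, the lowest of the list. It was read on its only probe set, with a signal close to the floor on the LPS+8-Br-cAMP array. Most of the list ran the other way, with 32 of the 50 measured factors higher and 18 lower. The highest was Rrp1b, with a difference of 1.29, and of 2.31 on its second probe set.

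The ribosome-bound partners included both subunits of the nascent polypeptide-associated complex, Naca and Btf3, with log2 differences of 0.61 and 0.75 with 8-Br-cAMP over LPS. A second probe set gave 0.42 for Naca and -0.11 for Btf3. Gas5, a non-coding host of small nucleolar RNAs whose transcript starts with a tract, had 830 with LPS+8-Br-cAMP, 854 with LPS alone and 1905 in unstimulated cells, differences of -0.04 with 8-Br-cAMP over LPS and -1.16 with LPS over unstimulated. Snhg1, of the same kind, had 208, 168 and 485, with -1.53 for LPS over unstimulated. Second probe sets gave -0.90 for Gas5 and -1.43 for Snhg1. The list, called ribosome-bound partners here and below, thus also holds non-coding genes. Its median was 0.39 and -0.18 in these comparisons, with 0 of 7 measured past 2-fold in the first. In the second 2 were past 2-fold lower, the non-coding Gas5 and Snhg1. Of all genes 6.49% were past 2-fold higher and 5.81% lower in the first, and 13% lower in the second.

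The 25 genes of mTOR and stress-kinase control had medians of -0.11 with 8-Br-cAMP over LPS and -0.12 with LPS over unstimulated. In the first, 2 were past 2-fold higher and 5 lower, against 6.49% and 5.81% of all genes. In the second, 3 were higher and 2 lower, against 6.64% and 13%. Larp1, which holds tract mRNAs untranslated when mTOR is off, had 1070 with LPS+8-Br-cAMP, 1057 with LPS alone and 282 in unstimulated cells. Its log2 difference was 1.91 for LPS over unstimulated, on its only probe set, and 0.02 with 8-Br-cAMP over LPS. Mxd1, an antagonist of Myc, had 1192, 1625 and 193, a log2 difference of 3.07 for LPS over unstimulated. Eif2ak2, the double-stranded RNA sensor PKR, had 420, 634 and 111, a log2 difference of 2.51 for LPS over unstimulated. Eif2ak3, the stress kinase PERK, had 69.9, 59.1 and 266, a log2 difference of -2.17 in the same comparison.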

How the data were processed

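Total RNA from 3 dendritic cell cultures, 1 array each, was measured on Affymetrix Mouse 430 2.0 arrays. Per the submitters' processing notes, the deposited signal intensities came from MAS5, whose version and settings they do not state. Of 45101 probe sets, 64 controls were left out, and GEO's platform annotation gave 1 gene for 34945, several for 932 and none listed for 9160. All probe sets were analysed together with pandas 2.3.3 and numpy 2.4.6, and cyclic loess used limma 3.58.1. Arrays were scaled to a common mean trimmed by 2% at each end, set to a floor at the highest array median, and compared as log2 differences with a 2-fold threshold. The code was tested on simulated data. The promoter sequences are from RefSeq and carry the build GRCm38.p6. Coordinates are given for the printed promoter windows alone.

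The members, lists and rules were chosen with earlier results of these data known. Members named were the 6 highest and 6 lowest in LPS+8-Br-cAMP over LPS and in LPS over unstimulated, all past 2-fold or under the floor on any array, and a set of well-studied members and copies. Of each other list, up to 4 genes with the largest differences were named. Rpl35, Rpl37a and Rps9 fall outside this rule and were named after their values were seen. Alternatives were other scalings, floors, probe set choices and thresholds. With 1 array per condition no replicate could be left out.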

Additional observations from a re-analysis of the deposited data

How the results depend on the processing

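With 1 array per condition no replicate could be left out. No paired analysis was possible because each condition has 1 array. A median was taken to have moved when it changed by over 0.2 on the log2 scale. In LPS+8-Br-cAMP over LPS the ribosomal protein median was 0.17 after quantile normalization (0.12 above all genes, large subunit 0.15, small subunit 0.17, ribosome-bound partners 0.091). After cyclic loess it was 0.17 (0.14 above all genes, large subunit 0.18, small subunit 0.15, ribosome-bound partners 0.14, elongation and termination factors -0.16). As deposited it was -0.29, with 0 members past 2-fold higher and 3 of 47 lower, against 0.903% and 28.0% of all genes. The deposited signals also gave -0.34 for the large subunit, -0.29 for the small subunit, -0.57 for mitochondrial ribosomal proteins, -0.41 for initiation factors, -0.74 for elongation and termination factors, -0.68 for biogenesis factors, -0.42 for ribosome-bound partners and -0.78 for mTOR and stress control. Past 2-fold higher were 5 of 48 members with spike scaling (7.72% of all genes) and 1 among the members with a mean over 1000, a setting chosen after seeing the data. Of the 50 members, 15 were read on probe sets with the suffix _x_at or _s_at. With only plain probe sets, those with the suffix _at alone, 17 of 22 measured members were higher at any size. Their median was 0.52, against 0.04 over all genes, and 1 was past 2-fold lower (6.05% of all genes). At 1.5-fold, in the main setting otherwise, 18 were higher (18.1%).

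In LPS over unstimulated the members' median of 0.0032 turned negative under 6 alternatives. It was -0.18 after quantile normalization (-0.070 relative to all genes, ribosome-bound partners -0.47) and -0.22 after cyclic loess (-0.15 relative to all genes, small subunit -0.22, mTOR and stress control 0.094). It was -0.028 with only plain probe sets and -0.012 for core members only. As deposited it was -0.28, with -0.31 for the large subunit, -0.23 for the small subunit, -0.85 for mitochondrial ribosomal proteins, -0.50 for initiation factors, -0.22 for elongation and termination factors, -0.69 for biogenesis factors, -0.46 for ribosome-bound partners and -0.40 for mTOR and stress control. With spike scaling it was -0.33, and the same lists had -0.36, -0.28, -0.86, -0.55, -0.27, -0.74, -0.52 and -0.45 in that order. Members past 2-fold lower numbered 1 with spike scaling (23.96% of all genes) and 1 with the floor at the 25th percentile (16.3%), and 2 were past 1.5-fold lower (28.6%).

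In LPS+8-Br-cAMP over unstimulated the members' median was 0.034 after quantile normalization (0.071 above all genes), -0.022 after cyclic loess (-0.016 relative to all genes) and -0.54 as deposited, with 0 members past 2-fold higher and 6 of 48 lower, against 2.503% and 53.6% of all genes. As a mean over probe sets it was 0.46 above all genes. Past 2-fold higher were 1 with spike scaling (6.88% of all genes), 1 among members with a mean over 1000 and 21 at 1.5-fold (18.5%), and 1 was past 2-fold lower with only plain probe sets (15.7%). Of the values for lists and for all members together, 174 under the alternatives stayed within these limits, 56 moved and 12 reversed. The cause of each change was not tested. Signals near the floor limit Rps4l, Rpl12 and Rpl14, whose own probe sets were all under 100.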

Other observations

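A further 27 ribosomal protein genes were on the array only through probe sets that the annotation gives to several genes, most often to a gene and its processed copies, so their signal cannot be assigned to 1 gene. Read on the brightest such probe set, 25 of 27 were higher with LPS+8-Br-cAMP than with LPS alone, with a median log2 difference of 0.48, and 1 passed 2-fold. In LPS over unstimulated 17 of 27 were higher, with a median of 0.03 and a range of -0.15 to 0.22. The probe set of Rpl17, a protein at the exit of the peptide tunnel, had 15056 with LPS+8-Br-cAMP, 6906 with LPS alone and 7609 in unstimulated cells, and was the 1 past 2-fold (1.12). The other shared probe sets of Rpl17 gave 0.40, 0.40 and 0.68, so the call is not seen on them. Those of Rpl3 and Rplp1, a stalk protein, had differences of 0.40 and 0.39 over LPS, and that of Rpl5, the partner of 5S rRNA, 0.22, with 0.88 and -0.32 on its dim ones. Rpl10, which joins the large subunit late in its assembly, had 0.72 and 0.77. The lowest was the probe set shared by Rpl36a and Rpl36al, with 3007, 4813 and 4782 in the same order of arrays, a difference of -0.68. Another shared probe set of Rpl36a ran the other way, with 4281, 3014 and 3614 (0.51). These genes share the arrays and the scaling with those above, so they are no independent repeat of the comparison.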
